A study of Danio rerio with 10 samples.

Results

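The genes described here are those of glutathione metabolism, of the thioredoxin system and of the Nrf2 antioxidant response. They were chosen by symbol alone: the glutathione transferase, glutathione peroxidase, peroxiredoxin and thioredoxin families, and 15 single genes, among them *gclc*, *gclm*, *nqo1*, *hmox1a*, *nfe2l2a* and *keap1a*. Of 32520 genes in the files, 59 matched, and 55 of them had enough reads to be tested. No measured value entered the rule itself, though it was set with earlier results of these data known.

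Glutathione is a small thiol that cells make from glutamate, cysteine and glycine. Glutathione transferases couple it to electrophiles, which include reactive aldehydes and quinones, while glutathione peroxidases and peroxiredoxins use thiols to reduce peroxides. Thioredoxin and its reductase regenerate most peroxiredoxins, and NADPH pays for both systems. Nrf2 is the transcription factor that turns many of these genes on when its partner Keap1 is modified by electrophiles or oxidants. In fish larvae the liver and the gut are rich in several of these enzymes.

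RNA was sequenced from whole zebrafish larvae at 120 h post fertilization, with 5 *aldh2.1-/-* clutches and 5 *aldh2.1+/+* clutches and 50 larvae pooled per clutch. The mutants carry a CRISPR/Cas9-induced deletion of 5 nucleotides in exon 3 that shifts the reading frame of *aldh2.1*, which encodes a mitochondrial aldehyde dehydrogenase. A single deletion allele was used, and both genotypes were on the Tg(fli1:EGFP) reporter background, in which endothelial cells express a green fluorescent protein. The larvae received no treatment. A clutch has 1 library, and the clutches of both genotypes are numbered 1, 2, 3, 5 and 6, the order in which values are listed below. The sources used here do not say how the parents of the sequenced clutches were related, so p-values measure the spread between these clutches.

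Libraries held between 19792930 and 20703518 estimated counts. The gene listed under the human symbol ALDH2 (ENSDARG00000089924) was taken as *aldh2.1*. It had 2.75 to 7.35 CPM (counts scaled to the size of the library) in *aldh2.1-/-* larvae against 10.2 to 12.5 CPM in *aldh2.1+/+* larvae. The genotypes did not overlap (log2 fold change -1.27, standard error 0.21, adjusted p = 0.134 by edgeR, 3.2e-05 to 0.415 over the alternatives). Its paralog *aldh2.2* was 1.57 to 2.16 CPM against 12.4 to 16.3 CPM. Its difference was the larger (log2 fold change -2.95, standard error 0.13, adjusted p = 2.08e-07 by edgeR). Neither gene had a whole count in any library, and the highest counts were 244.677 for *aldh2.1* and 318.794 for *aldh2.2*. Some reads were therefore divided between transcripts of different genes, so the levels of the 2 copies are uncertain. Markers of liver, intestine, exocrine pancreas, erythrocytes, muscle, photoreceptors, lens and leukocytes were present, and none was at 0 in every library. Because RNA of all tissues was pooled, fewer cells of a type and less RNA per cell cannot be told apart.

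Below, levels of genes are compared in TPM, transcript abundances scaled for length. Genotypes are compared in CPM scaled by the trimmed mean of M values, which carry no length term. Fold changes are *aldh2.1-/-* over *aldh2.1+/+* on the log2 scale, with 95% intervals from the edgeR fit. Names in capitals with an identifier are zebrafish genes that the name table lists under the human symbol, without telling which copy they are.

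The antioxidant genes ran from glutathione transferases and peroxidases among the abundant transcripts to kappa class transferases near the limit of detection. Together they made up 1789 to 2257 TPM in *aldh2.1-/-* libraries and 1749 to 2378 TPM in *aldh2.1+/+* libraries. The 5 most abundant genes held 41.8% of that sum and the 10 most abundant 65.6%. Average levels were above 100 TPM for 6 genes, under 5 TPM for 19 genes and under 1 TPM for 5 genes.

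**Figure D1:**
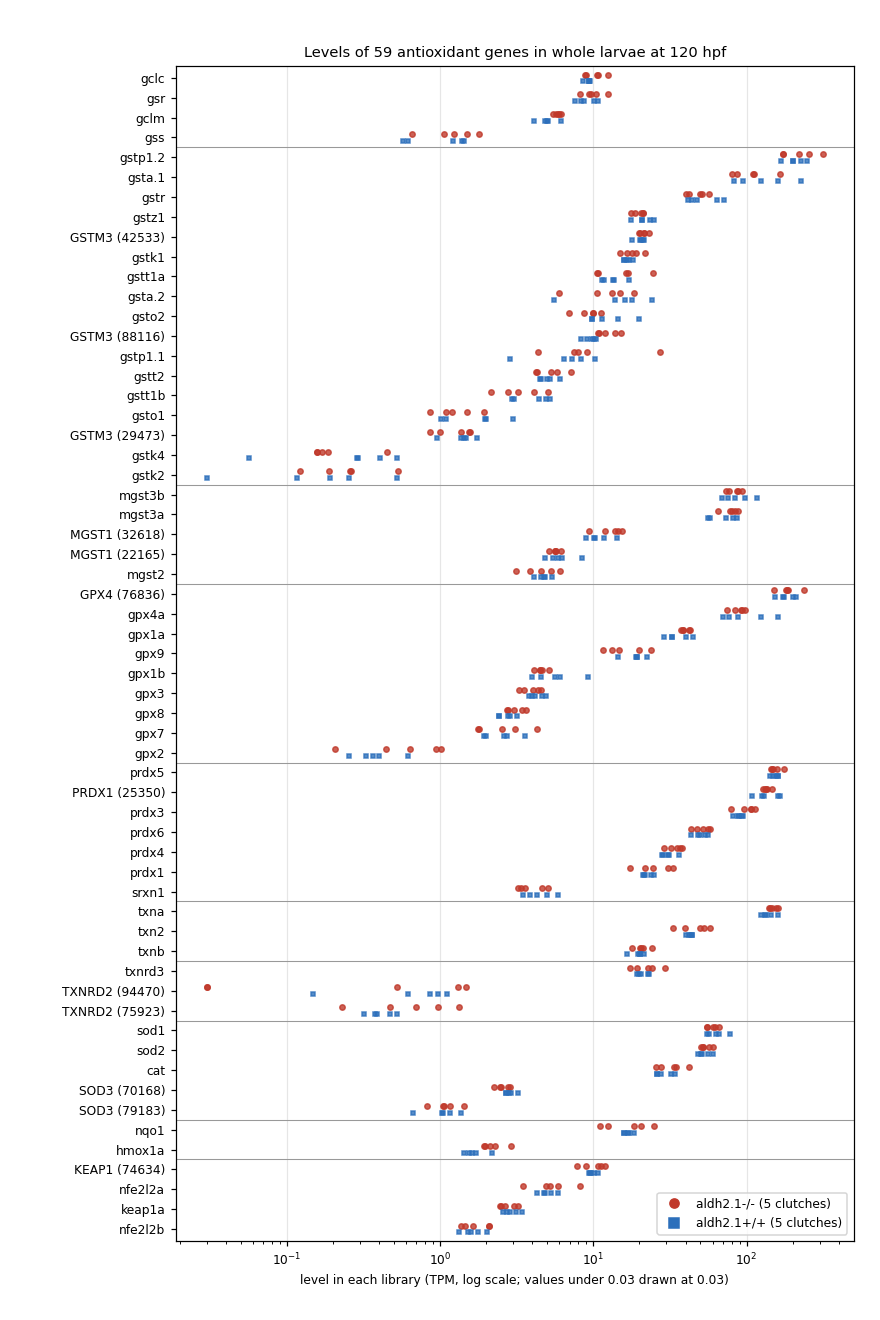
Level of each of the 59 antioxidant genes in every library, in TPM on a log axis, grouped by role with grey lines between roles; circles are the 5 *aldh2.1-/-* clutches and squares the 5 *aldh2.1+/+* clutches. The number behind a capital name is the end of its identifier. The 6 genes above 100 TPM on average are *gstp1.2*, GPX4, *prdx5*, *txna*, PRDX1 and *gsta.1*, and the genotypes overlap in TPM for every gene but GSTM3 (ENSDARG00000088116).

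The most abundant was *gstp1.2*, a pi class glutathione transferase and in zebrafish a known target of Nrf2, at 167 to 315 TPM over the 10 libraries (median 212 TPM). GPX4 (ENSDARG00000076836), which reduces lipid hydroperoxides, followed at 150 to 237 TPM (median 181 TPM). The difference between these means, 33.5 TPM, was within the spread of the libraries, as was that between *prdx5* at 143 to 177 TPM and *txna*, a thioredoxin, at 124 to 159 TPM. Within libraries, *gstp1.2* was above GPX4 in 7 of 10 and *prdx5* above *txna* in 8. GPX4 was above *prdx5* in 10 of 10 libraries, and their means differed by more than the larger standard deviation (30.5 against 26.2 TPM).

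PRDX1 (ENSDARG00000025350), a cytosolic peroxiredoxin, had 108 to 165 TPM, and *gsta.1*, an alpha class transferase, had 80.2 to 228 TPM. They did not differ beyond their spread. Neither did *gpx4a* from *prdx3*, *prdx3* from *mgst3b* or *mgst3b* from *mgst3a*, at means between 75.0 TPM for *mgst3a* and 96.3 TPM for *gpx4a*. Within libraries, PRDX1 was above *gsta.1* in 8 of 10 and *gpx4a* above *prdx3* in 3. In the same way *prdx3* was above *mgst3b* in 8 and *mgst3b* above *mgst3a* in 9. Below *mgst3a* came *sod1* with a mean of 61.8 TPM and *sod2* with 53.7 TPM, and each of these steps exceeded the larger standard deviation.

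No antioxidant gene passed the genotype test: at an adjusted p under 0.05 in edgeR the count was 0 of 55, where 0.00929% of all genes tested passed (2 of 21532), and the smallest adjusted p of an antioxidant gene was 0.921. The count was 0 in DESeq2 and limma as well. At an unadjusted p under 0.05 in edgeR, 1 gene was higher in *aldh2.1-/-* larvae, against 2.83% of all genes, and 1 was lower, against 2.21%, or 5.04% of all genes in either direction. These shares of members, 1 of 55 each, are near the background. For 0 of 55 genes did the clutches of one genotype lie wholly above those of the other, against 0.725% of all genes tested.

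The direction was even as well: 27 genes had a higher and 28 a lower mean in *aldh2.1-/-*. The median log2 fold change was -0.00, and 0.01 over all genes. The median size of the change was 0.11 log2 units for the antioxidant genes and 0.10 for all genes. The 95% interval lay within 1 log2 unit of 0 for 51 genes and within 0.5 units for 36 genes, so for these a larger difference in either direction was outside the interval.

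**Figure D2:**
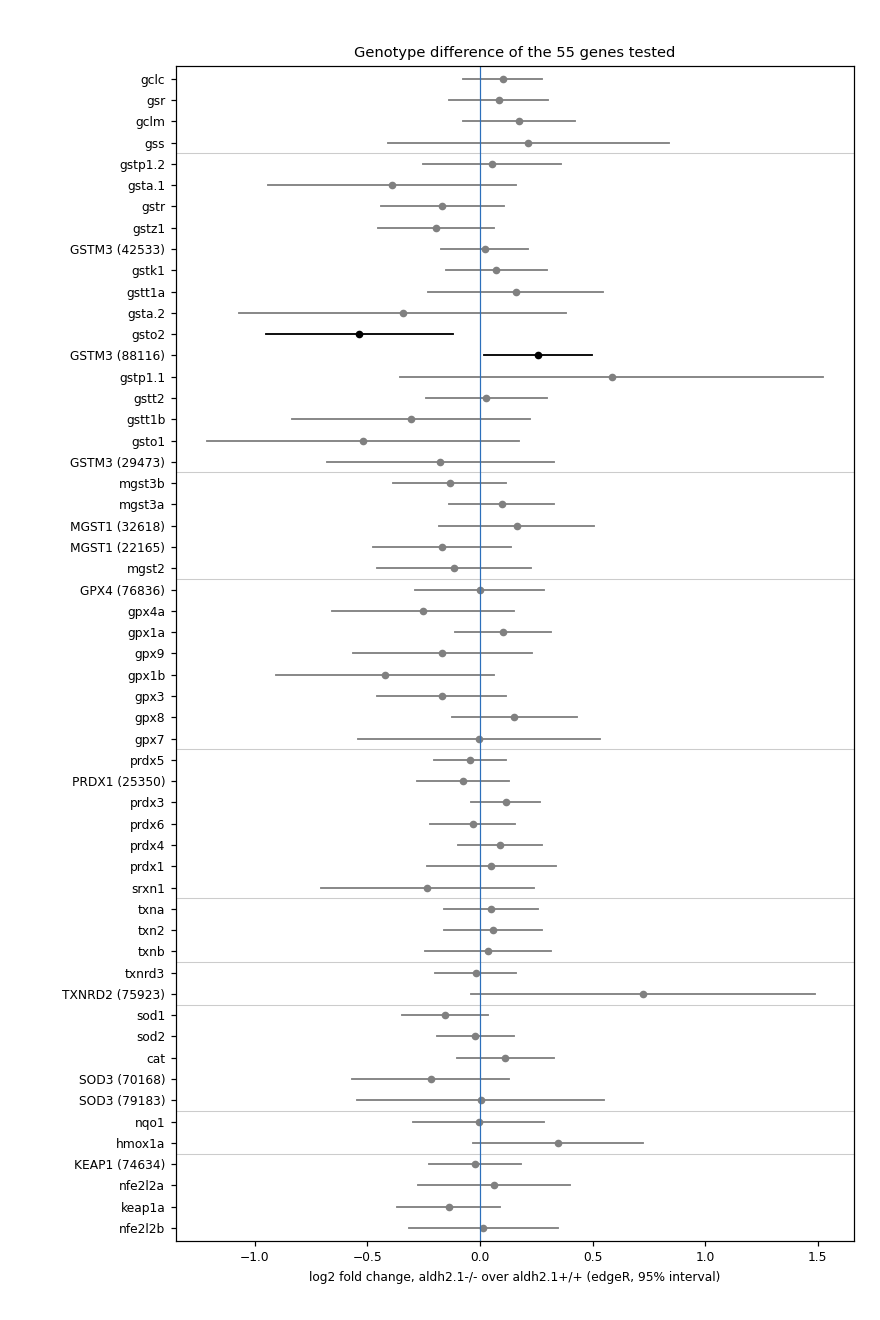
Log2 fold change of *aldh2.1-/-* over *aldh2.1+/+* for the 55 genes tested, with the 95% interval of the edgeR fit, grouped by role; black marks the intervals that leave out 0. These are *gsto2* at -0.54 and GSTM3 (ENSDARG00000088116) at 0.26, and 53 of the 55 intervals include 0.

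Enzymes that make and recycle glutathione were slightly higher on average in *aldh2.1-/-* larvae, 4 of 4, and none passed the test. Each of the 4 intervals included 0, and 52.1% of all genes tested were higher in *aldh2.1-/-*. The catalytic subunit of glutamate cysteine ligase, *gclc*, carries the rate-limiting step of synthesis. Its level was 29.9, 29.2, 25.8, 26.1 and 24.4 CPM in *aldh2.1-/-* clutches and 26.2, 23.7, 28.2, 23.9 and 24.3 CPM in *aldh2.1+/+* clutches, which overlap almost throughout (log2 fold change 0.10, 95% interval -0.08 to 0.28). The modifier subunit, *gclm*, had 8.22, 9.74, 7.69, 9.71 and 9.22 CPM against 6.50, 8.98, 8.42, 8.17 and 7.44 CPM (0.17, -0.08 to 0.42). Glutathione synthetase, *gss*, which adds glycine in the last step, was lower in level and wider in spread, with 1.26 to 2.83 CPM against 1.05 to 2.39 CPM (0.21, -0.41 to 0.84). Glutathione reductase, *gsr*, which turns oxidised glutathione back with NADPH, had 9.86 to 11.7 CPM against 8.78 to 11.6 CPM (0.08, -0.14 to 0.30). Each of these 4 genes kept its sign in every alternative tried.

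Cytosolic and kappa class glutathione transferases held both genes with an unadjusted p under 0.05. Of the 17 genes, 15 were tested, 7 with a higher and 8 with a lower mean in *aldh2.1-/-*, and their median log2 fold change was -0.17. Their summed level was 414 to 700 TPM in *aldh2.1-/-* larvae and 398 to 687 TPM in *aldh2.1+/+* larvae.

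The omega class enzyme *gsto2*, which in mammals reduces dehydroascorbate, was the gene with the lowest fold change. Its level was 7.99, 7.21, 7.27, 8.66 and 5.56 CPM in *aldh2.1-/-* clutches against 16.4, 8.59, 9.03, 8.17 and 11.1 CPM in *aldh2.1+/+* clutches. Clutch 1 of *aldh2.1+/+* stood highest, and clutches 2 and 5 of that genotype lay inside the *aldh2.1-/-* range. The log2 fold change was -0.54 (95% interval -0.95 to -0.12, edgeR adjusted p = 0.921, exact permutation p = 0.0238, two-sided), and it was -0.33 without *aldh2.1+/+* clutch 1, with an unadjusted edgeR p of 0.0406. Of all alternatives, the unadjusted p left the side under 0.05 only in limma on all genes above 0 TPM, where it was 0.0523.

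Its neighbour on the chromosome, *gsto1*, had 1.30, 1.07, 1.68, 1.47 and 2.42 CPM against 3.76, 2.29, 2.75, 1.30 and 1.30 CPM. The fold change was of the same size, -0.52, with a wider interval of -1.21 to 0.17. Without *aldh2.1+/+* clutch 1 it was -0.27. RefSeq, in its assembly GRCz12tu, places no protein-coding gene between *gsto1* and *gsto2*. They were quantified separately, with exactly whole counts in 10 of 10 libraries for *gsto1* and in 4 for *gsto2*. A count can miss a whole number because reads were divided between genes, or only by a small decimal remainder. For *gsto2* the lowest count was 108.0, the highest 323.0 and the mean 182.59992. These values do not show that its reads were shared with another gene.

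GSTM3 (ENSDARG00000088116), a mu class transferase, was the gene with an unadjusted p under 0.05 and a higher level in *aldh2.1-/-* larvae. It had 11.1, 13.9, 10.5, 11.9 and 11.2 CPM in *aldh2.1-/-* clutches against 8.64, 8.78, 11.6, 10.3 and 9.69 CPM in *aldh2.1+/+* clutches, with only clutch 3 of *aldh2.1+/+* inside the *aldh2.1-/-* range. The log2 fold change was 0.26 (0.02 to 0.50, edgeR adjusted p = 0.921, exact permutation p = 0.0476, two-sided). The unadjusted p ran between 0.00654 and 0.115 over the alternatives. In TPM the genotypes did not overlap, at 10.8 to 15.2 TPM against 8.29 to 10.5 TPM. No library gave it an exactly whole count, so some of its reads may have been divided with other genes. The other 2 genes under the same symbol, GSTM3 (ENSDARG00000042533) and GSTM3 (ENSDARG00000029473), had whole counts in all libraries and log2 fold changes of 0.02 (-0.17 to 0.21) and -0.18 (-0.68 to 0.33).

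**Figure D3:**
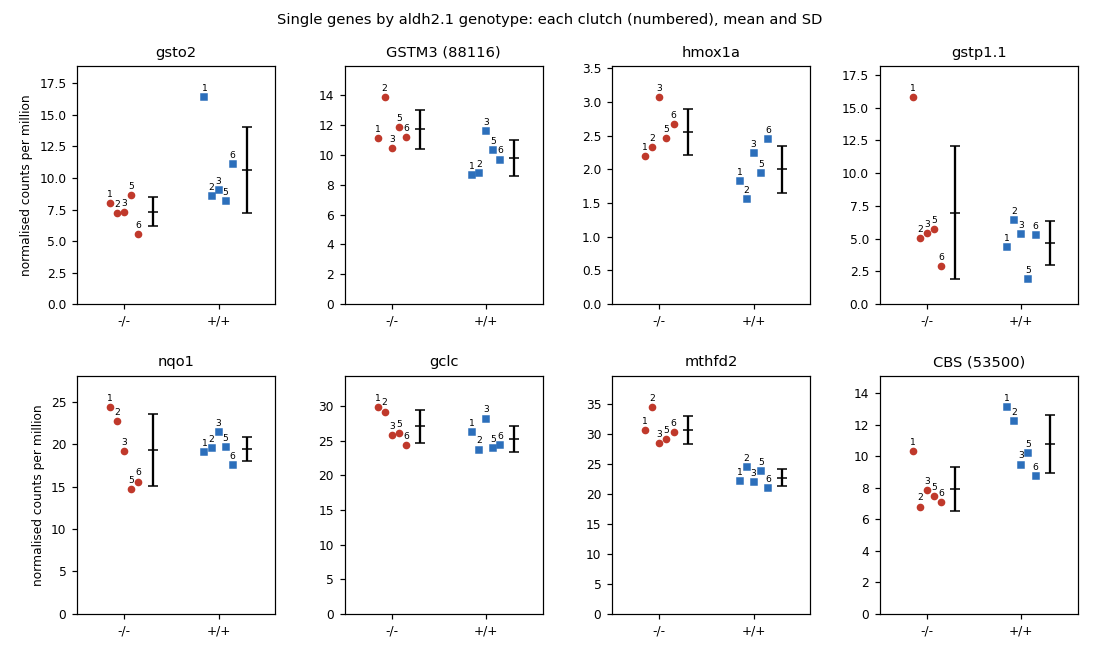
Normalised CPM of 8 genes in every clutch, by *aldh2.1* genotype; circles are *aldh2.1-/-* and squares *aldh2.1+/+* clutches, numbered by clutch, with the mean and standard deviation (n = 5 each) beside them, and the vertical axes start at 0. Clutch 1 of *aldh2.1-/-* stands alone for *gstp1.1* at 15.8 CPM, clutch 1 of *aldh2.1+/+* for *gsto2* at 16.4 CPM, and *mthfd2* is the gene shown whose genotypes do not overlap.

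Pi class transferases showed how far a single clutch could set a fold change. *gstp1.1* had 15.8, 5.01, 5.45, 5.72 and 2.88 CPM in *aldh2.1-/-* clutches against 4.37, 6.39, 5.36, 1.94 and 5.28 CPM in *aldh2.1+/+* clutches. All but clutch 1 of *aldh2.1-/-* lay in a common range. Its log2 fold change was 0.58 (-0.35 to 1.52), and 0.03 without that clutch. The adjacent *gstp1.2*, with 118 to 189 CPM against 117 to 173 CPM, had a fold change of 0.05 (-0.25 to 0.36).

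Alpha class transferases, in mammals abundant in liver and intestine, were lower on average in *aldh2.1-/-* larvae without passing the test. *gsta.1* had 103, 78.9, 70.2, 62.7 and 62.1 CPM in *aldh2.1-/-* clutches against 167, 107, 74.1, 61.4 and 85.7 CPM in *aldh2.1+/+* clutches. Clutches 1 and 2 of *aldh2.1+/+* were the highest, and the rest overlapped. Its log2 fold change was -0.39 (-0.94 to 0.16), and -0.12 without *aldh2.1+/+* clutch 1. *gsta.2* had 4.99 to 13.8 CPM against 4.74 to 18.9 CPM (-0.34, -1.07 to 0.38).

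Other cytosolic classes differed less. *gstr*, of the rho class known from fish, had 57.7 to 76.1 CPM against 58.1 to 89.4 CPM (-0.17, -0.44 to 0.11), and *gstz1*, which isomerises maleylacetoacetate in tyrosine breakdown, 8.80 to 12.8 CPM against 10.3 to 13.4 CPM (-0.19, -0.45 to 0.06). The theta class enzymes *gstt1a*, *gstt2* and *gstt1b* had fold changes of 0.16, 0.03 and -0.31, and the kappa class *gstk1* had 0.07 (-0.15 to 0.30). The 2 genes of this group that were not tested, *gstk2* and *gstk4*, averaged 2.10 and 4.50 counts per library.

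Membrane-bound transferases, which lie in the membranes of the endoplasmic reticulum and mitochondria, split into 2 with a higher and 3 with a lower mean in *aldh2.1-/-*. Their summed level was 164 to 201 TPM in *aldh2.1-/-* libraries and 150 to 227 TPM in *aldh2.1+/+* libraries. The abundant *mgst3b* had 72.2 to 82.7 CPM against 66.0 to 111 CPM (log2 fold change -0.14, -0.39 to 0.12), and -0.01 without *aldh2.1+/+* clutch 1. *mgst3a* went the other way, with 30.8 to 38.9 CPM against 27.5 to 40.5 CPM (0.10, -0.14 to 0.33). The genes listed as MGST1 had fold changes of opposite sign, -0.17 for ENSDARG00000022165 and 0.16 for ENSDARG00000032618, and both intervals included 0.

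Glutathione peroxidases reduce hydrogen peroxide and lipid peroxides at the expense of glutathione. Of 8 tested, 6 had a lower and 2 a higher mean in *aldh2.1-/-*, and none passed the test. *gpx4a* had 58.7, 55.0, 63.2, 66.2 and 68.8 CPM in *aldh2.1-/-* clutches against 115, 83.1, 61.8, 51.9 and 60.5 CPM in *aldh2.1+/+* clutches, where clutches 1 and 2 were again the highest. The log2 fold change was -0.26 (-0.66 to 0.15), and -0.05 without *aldh2.1+/+* clutch 1. *gpx1b*, a cytosolic peroxidase, had 2.69, 3.41, 2.42, 3.20 and 2.94 CPM against 6.20, 3.76, 4.13, 3.09 and 2.49 CPM. Its fold change was -0.42 (-0.91 to 0.06), and -0.20 without that clutch. GPX4 was level at -0.00 (-0.29 to 0.28), while within *aldh2.1-/-* it had 88.5 CPM in clutch 1 and 159 CPM in clutch 6. *gpx1a*, *gpx3*, *gpx7*, *gpx8* and *gpx9* lay between -0.17 and 0.15, and *gpx2*, an intestinal form in mammals, averaged 7.90 counts per library and was not tested.

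Peroxiredoxins reduce peroxides with a reactive cysteine that, in most of them, thioredoxin restores. The 6 genes differed little on average between genotypes: 3 had a higher and 3 a lower mean in *aldh2.1-/-*, and their log2 fold changes lay between -0.07 and 0.11. Their summed level was 450 to 535 TPM in *aldh2.1-/-* libraries and 435 to 532 TPM in *aldh2.1+/+* libraries, with means of 501 and 485 TPM. The mitochondrial *prdx3* had 105, 115, 101, 91.4 and 103 CPM against 103, 93.1, 95.6, 96.7 and 88.8 CPM (0.11, -0.04 to 0.27). PRDX1 (ENSDARG00000025350) was at -0.07 (-0.28 to 0.13) and *prdx5*, of mitochondria and peroxisomes, at -0.05 (-0.21 to 0.11). *srxn1*, sulfiredoxin, which rescues peroxiredoxins that have been oxidised too far, had 1.26, 1.12, 0.932, 1.102 and 1.54 CPM against 1.58, 1.12, 1.48, 1.097 and 1.73 CPM (-0.23, -0.71 to 0.24).

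Thioredoxins, 3 in number, had log2 fold changes of 0.05 for *txna*, 0.06 for the mitochondrial *txn2* and 0.04 for *txnb*, of which the last 2 changed sign under some alternatives, with every interval within 0.32 log2 units of 0. For *txna*, the most abundant, clutches had 60.2, 76.3, 62.1, 77.6 and 77.1 CPM in *aldh2.1-/-* and 79.0, 60.5, 67.2, 72.3 and 62.5 CPM in *aldh2.1+/+*. The reductases that feed electrons to them from NADPH were 3 in number. *txnrd3* was at -0.02 (-0.20 to 0.16). TXNRD2 (ENSDARG00000075923), the name of the mitochondrial enzyme, had the highest fold change of the 55 antioxidant genes, 0.72 (-0.04 to 1.49), at a low level of 1.44, 1.27, 0.978, 0.787 and 0.360 CPM against 0.661, 0.537, 0.408, 0.847 and 0.480 CPM. The ranges overlapped, with clutch 6 of *aldh2.1-/-* the lowest of all 10 libraries. The other gene listed as TXNRD2 (ENSDARG00000094470) averaged 5.92 counts per library and was not tested.

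Catalase and the superoxide dismutases take hydrogen peroxide and superoxide without glutathione. *cat* had 70.3, 63.6, 58.9, 51.0 and 51.6 CPM in *aldh2.1-/-* clutches against 63.8, 55.8, 53.8, 50.0 and 50.2 CPM in *aldh2.1+/+* clutches (0.11, -0.10 to 0.33). The cytosolic dismutase *sod1* had 33.2, 31.7, 31.5, 34.1 and 34.0 CPM against 45.4, 35.4, 35.8, 32.2 and 34.3 CPM. Clutch 1 of *aldh2.1+/+* was the highest, and the fold change of -0.15 (-0.34 to 0.04) was -0.07 without it. The mitochondrial *sod2* was at -0.02 (-0.19 to 0.15). The genes listed as SOD3, the extracellular form, were at -0.22 (-0.57 to 0.13) for ENSDARG00000070168 and 0.00 (-0.55 to 0.55) for ENSDARG00000079183. The files do not tell which of them is *sod3a*, so both were kept.

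Among the genes used most often to read the activity of Nrf2, *nqo1* did not separate the genotypes. This quinone reductase had 24.4, 22.7, 19.2, 14.7 and 15.6 CPM in *aldh2.1-/-* clutches against 19.1, 19.5, 21.5, 19.6 and 17.6 CPM in *aldh2.1+/+* clutches. The *aldh2.1-/-* clutches spread on either side of the *aldh2.1+/+* ones (19.4 ± 4.26 CPM against 19.4 ± 1.40 CPM, SD, n = 5 each), and the log2 fold change was -0.01 (-0.30 to 0.28). *hmox1a*, heme oxygenase, which breaks heme down and is induced by oxidants, had 2.201, 2.34, 3.07, 2.47 and 2.68 CPM against 1.83, 1.56, 2.24, 1.94 and 2.45 CPM. The *aldh2.1-/-* clutches were the higher on average but overlapped with clutches 3 and 6 of *aldh2.1+/+*. The fold change was 0.35 (-0.03 to 0.72, edgeR adjusted p = 0.921, exact permutation p = 0.0476, two-sided), and the unadjusted p ran between 0.0365 and 0.173 over the alternatives.

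The genes of Nrf2 and its inhibitor did not pass the test either. *nfe2l2a*, which encodes Nrf2, had 31.0, 21.3, 22.7, 16.4 and 22.7 CPM against 18.8, 19.6, 28.2, 21.1 and 21.8 CPM (0.06, -0.28 to 0.40). Its paralog *nfe2l2b* was at 0.01 (-0.32 to 0.34). Keap1 holds Nrf2 in the cytosol for degradation. *keap1a* had 7.23, 6.38, 6.99, 6.82 and 6.80 CPM against 8.84, 6.78, 7.70, 6.78 and 7.58 CPM (-0.14, -0.37 to 0.09), and the other copy, listed as KEAP1 (ENSDARG00000074634), was at -0.02 (-0.23 to 0.18). RNA levels of Nrf2 and Keap1 do not measure their activity, which is set largely at the protein.

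The clutches of a genotype also differed from each other. Clutch 1 of *aldh2.1+/+* had the highest value of all 10 libraries for 18 of the 55 genes (32.7%), where it did for 8.85% of all genes tested. Clutch 5 of *aldh2.1+/+* had the lowest value for 13 genes (23.6%), against 7.91% of all genes. Clutch 1 of *aldh2.1-/-* was highest for 13 genes (23.6%), close to its share of 22.0% among all genes. The median deviation of the 55 genes from their own means, in log2 units, was 0.17 in *aldh2.1+/+* clutch 1, 0.07 in clutch 3, -0.01 in clutch 2, -0.09 in clutch 5 and -0.11 in clutch 6, and in *aldh2.1-/-* it lay between -0.09 and 0.02.

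**Figure D4:**
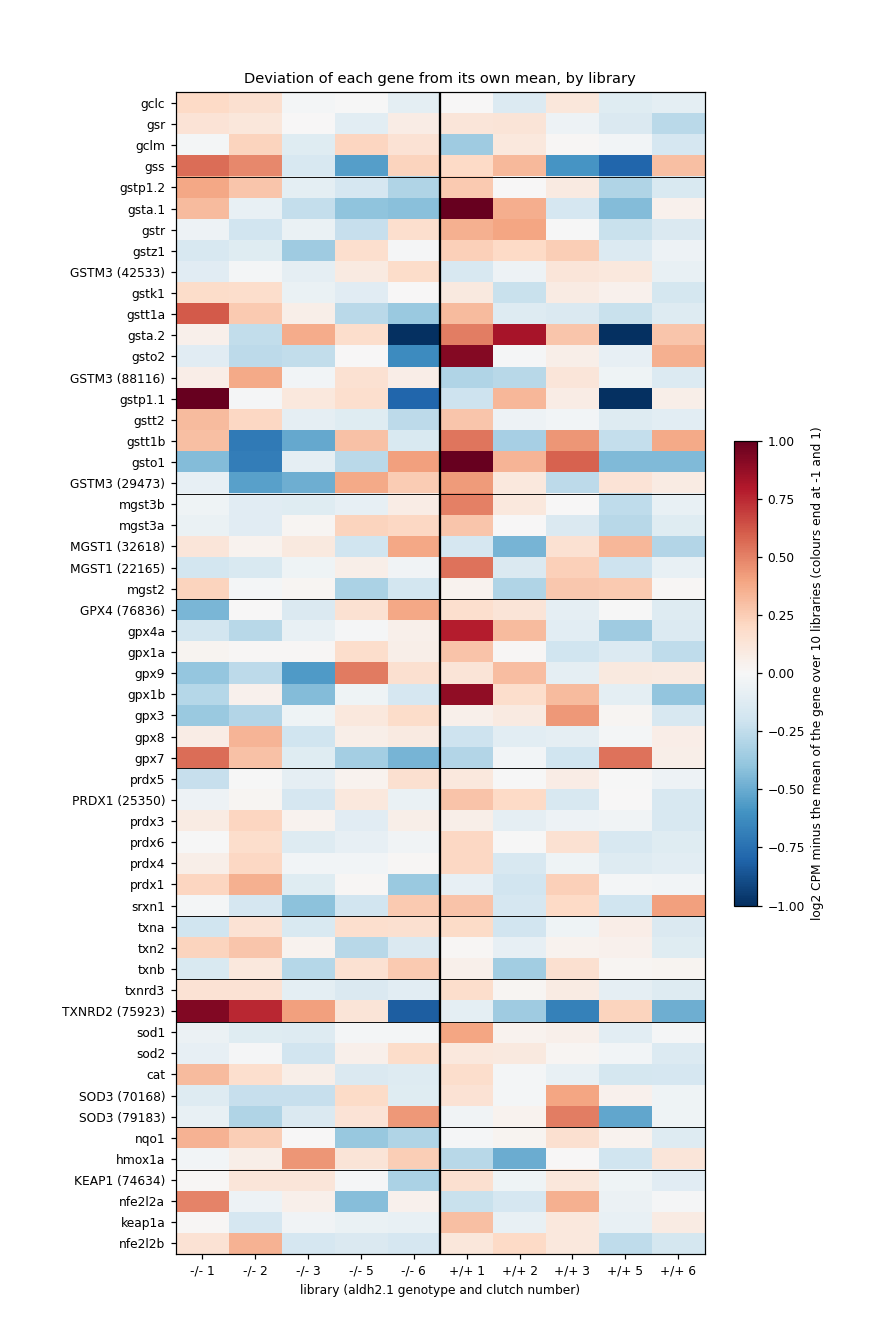
Deviation of each of the 55 tested genes from its own mean over 10 libraries, in log2 CPM, with the 5 *aldh2.1-/-* clutches to the left of the vertical line and the 5 *aldh2.1+/+* clutches to its right, rows grouped by role; red is above and blue below the mean, and colours end at -1 and 1. The column of *aldh2.1+/+* clutch 1 is red over many transferases and peroxidases. Its median deviation over all 55 genes is 0.17, and no row parts the genotypes.

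Of the marker lists summed, only intestine and liver were highest and lowest in the same *aldh2.1+/+* libraries, clutches 1 and 5. Sums for exocrine pancreas, erythrocytes, muscle, photoreceptors, lens and leukocytes had both their highest and their lowest library in *aldh2.1-/-*. The summed level of 14 intestine genes was 621, 417, 525, 367 and 464 TPM in *aldh2.1-/-* clutches and 1235, 846, 578, 327 and 564 TPM in *aldh2.1+/+* clutches, with clutch 1 of *aldh2.1+/+* the highest library and clutch 5 the lowest. Of these 14 genes, 10 were highest in that clutch 1 and 8 lowest in that clutch 5, and none was at 0 in every library.

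The summed level of 14 liver genes was 1521 to 2235 TPM in *aldh2.1-/-* and 1400 to 2630 TPM in *aldh2.1+/+* libraries, again with clutch 1 of *aldh2.1+/+* the highest and clutch 5 the lowest. Gene by gene the liver followed this less, with 3 of the 14 highest in that clutch 1 and 5 lowest in that clutch 5. The sum of *gsta.1* and *gsta.2* was 180, 120, 130, 93.5 and 92.5 TPM against 246, 184, 109, 88.7 and 141 TPM, which has the same highest and lowest libraries. The part of these tissues in the differences was not tested.

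**Figure D5:**
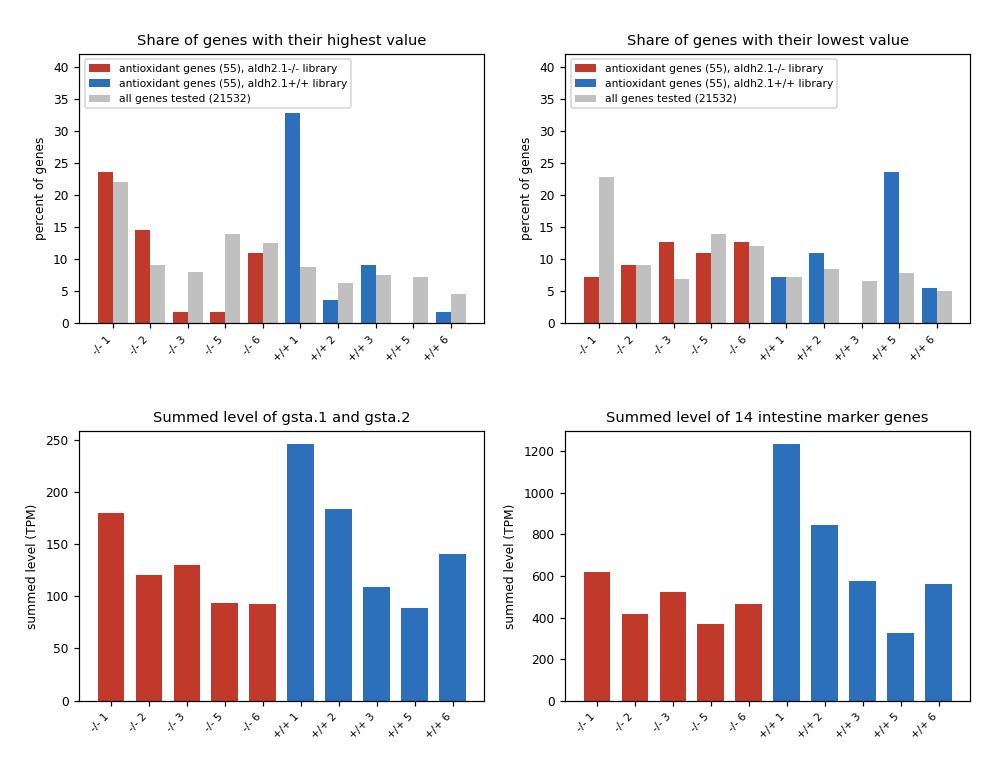
Upper panels, percent of genes with their highest or their lowest value in each library, for the 55 antioxidant genes (coloured) and for all 21532 genes tested (grey); lower panels, summed TPM of *gsta.1* and *gsta.2* and of 14 intestine marker genes, with *aldh2.1-/-* clutches in red to the left of *aldh2.1+/+* clutches in blue. Clutch 1 of *aldh2.1+/+* holds 32.7% of the highest values and the highest intestine sum, 1235 TPM, and clutch 5 holds 23.6% of the lowest values and the lowest intestine sum, 327 TPM.

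The spread between clutches was about as wide in both genotypes for these genes. The median coefficient of variation of CPM was 13.7% in *aldh2.1-/-* and 13.9% in *aldh2.1+/+* clutches, and it was the larger in *aldh2.1-/-* for 28 of 55 genes (50.9%). Over all genes tested the medians were 17.1% and 11.7%, and the *aldh2.1-/-* value was the larger for 71.7% of them. Without *aldh2.1+/+* clutch 1 the share among the antioxidant genes was 56.4%, and 72.9% among all genes.

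Further genes of the same pathways were read from 5 lists of 129 genes, none of them among the 59, of which 128 were tested. They cover glutathione supply and turnover, glutaredoxins and thioredoxin partners, NADPH supply, partners of Nrf2, and other Nrf2 targets. At an adjusted p under 0.05 the count was 0 of 128 in edgeR, 0 in limma and 1 in DESeq2 (*mthfd2*), and at an unadjusted p under 0.05 4 were higher and 4 lower in the mutants, 4 of 128 each way, near the 2.83% and 2.21% of all genes. DESeq2 called 24 of 29075 genes in all. The median log2 fold change was 0.03, beside 0.01 for all genes, with 75 genes higher and 53 lower. The share higher was 58.6%, against 52.1% of all genes tested. Genotypes did not overlap for 3 genes, *mthfd2*, MTHFD1L and GLRX5, against 0.725% of all genes tested.

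Of the 18 genes listed for NADPH supply, those without overlap were mitochondrial folate enzymes. *mthfd2*, which oxidises methylene-tetrahydrofolate in mitochondria, had 30.6, 34.5, 28.5, 29.2 and 30.3 CPM in *aldh2.1-/-* clutches against 22.2, 24.4, 22.0, 23.8 and 21.0 CPM in *aldh2.1+/+* clutches. All *aldh2.1-/-* clutches were above all *aldh2.1+/+* clutches, and the log2 fold change was 0.43 (0.27 to 0.60). The edgeR adjusted p was 0.176, the exact permutation p was 0.00794, the smallest that 5 against 5 can give, and the adjusted p was 0.000691 in DESeq2 and 0.0495 in edgeR without *aldh2.1-/-* clutch 5, over a range of 0.000691 to 0.877. MTHFD1L (ENSDARG00000042221), which releases formate in the same compartment and makes no NADPH itself, had 6.69, 4.53, 5.54, 4.35 and 6.64 CPM against 3.71, 3.61, 3.98, 3.94 and 3.69 CPM (0.55, 0.23 to 0.87, edgeR adjusted p = 0.900, 0.124 to 1.00 over the alternatives).

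IDH1 (ENSDARG00000025375), the cytosolic isocitrate dehydrogenase, supplies NADPH. It had 69.9 to 82.1 CPM against 75.1 to 125 CPM (-0.27, -0.54 to -0.00), with *aldh2.1+/+* clutch 1 the highest.

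Of the 26 genes of glutathione supply and turnover, 14 had a higher and 12 a lower mean in *aldh2.1-/-*, with a median log2 fold change of 0.04. Those described here were named for an unadjusted p under 0.05, apart from *slc7a11*. SLC3A2 (ENSDARG00000037012), the heavy chain of the cystine and amino acid transporters, had 61.2, 62.1, 52.5, 55.4 and 57.7 CPM in *aldh2.1-/-* clutches against 41.0, 47.1, 47.7, 57.1 and 52.0 CPM in *aldh2.1+/+* clutches (0.24, 0.05 to 0.43). *slc7a11*, the cystine exchanger that pairs with it and a known target of Nrf2 in mammals, was at -0.09 (-0.42 to 0.23). CBS (ENSDARG00000053500), which with CTH makes cysteine from homocysteine, had 10.3, 6.82, 7.87, 7.50 and 7.11 CPM against 13.2, 12.2, 9.49, 10.2 and 8.78 CPM (-0.44, -0.76 to -0.13), and CTH (ENSDARG00000074301) was at -0.15 (-0.29 to -0.00). Each of SLC3A2, CBS and CTH had an edgeR adjusted p of 0.921.

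Of the remaining pathway genes with an unadjusted edgeR p under 0.05, *tfr1b*, a transferrin receptor, was at 0.93 (0.03 to 1.82). It was carried by clutches 1 and 2 of *aldh2.1-/-*, at 50.5 and 40.8 CPM, while the other *aldh2.1-/-* clutches had 11.0 to 14.6 CPM and the *aldh2.1+/+* clutches 11.6 to 16.4 CPM. The summed level of 9 erythrocyte genes was 243 to 621 TPM in *aldh2.1-/-* and 322 to 379 TPM in *aldh2.1+/+* libraries, and its part in *tfr1b* was not tested. HMOX2 (ENSDARG00000114695), the constitutive heme oxygenase, was at -0.21 (-0.42 to -0.00). GLRX5 (ENSDARG00000043665), the mitochondrial glutaredoxin of iron-sulfur cluster assembly, did not overlap between genotypes and was at 0.23 (-0.01 to 0.48). The genes listed as TXNIP, inhibitors of thioredoxin, were at 0.12 (ENSDARG00000036107) and -0.02 (ENSDARG00000070000), and SQSTM1 (ENSDARG00000075014), which binds Keap1, was at 0.02.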

How the data were processed

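The authors deposited 2 values per gene and library: expected counts, estimated by pseudoalignment and left unnormalised, and TPM, scaled for transcript length. The submitters' processing notes name Trim Galore 0.6.4, kallisto 0.4.6 and the build GRCz11. Kallisto can divide reads between similar transcripts, so near-identical paralogs are uncertain. Of the 59 genes, 18 had exactly whole counts in all libraries and 23 in none. Some of the 23 missed whole numbers only in late decimals, such as *gstk1* with counts from 195.0001 to 282.00014. The tally therefore does not count the genes whose reads were shared with other genes. Libraries held 19792930 to 20703518 counts, and the chi-square between replicates was at least 7.47 per degree of freedom, so the spread between clutches sets the precision.

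Symbols were given for 29201 genes by a name table that mixes human and zebrafish names, and 4 genes were matched through RefSeq synonyms. Rounded counts went into a quasi-likelihood fit in edgeR 4.0.16 (R 4.3.3) with TMM factors, filterByExpr, the robust option and no block; p-values were adjusted by Benjamini-Hochberg over 21532 genes with a threshold of 0.05. The steps were tested on simulated data. For single genes, log2 CPM (prior count 2) was permuted exactly between genotypes, two-sided; 5 against 5 libraries allow no p under 0.00794.

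Alternatives were DESeq2 1.42.0, scaling by library size, no filter or a minimum of 10 counts per library, limma 3.58.1 on TPM with a pseudocount of 1 or 0.1, a replicate block, and leaving out each library. Named were the 15 single genes, the 2 most abundant members of each of the 12 families, members with an unadjusted p under 0.05, the 5 highest and 5 lowest fold changes and the 5 most variable members. Pathway genes were named at an unadjusted p under 0.05, together with *slc7a11*, TXNIP, SQSTM1 and *hmox1b*, which the name table did not hold. GLRX5 and other members were named after their values were seen. Members and lists were chosen with earlier results of these data known. A further gene of that rule is not reported here. Promoter and protein sequences were not analysed here.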

Additional observations from a re-analysis of the deposited data

Results flagged for a closer look

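In 5 of 78 groups of 5 clutches checked for a sample far from the others, 1 clutch stood apart by Dixon's criterion. Chance gives about 1 in 20 for genes not picked by their values. Some genes checked here were named for their spread or their extreme fold changes in these data, so that rate does not strictly apply. Clutch 1 of *aldh2.1-/-* had 15.8 CPM of *gstp1.1*, against 5.72 CPM in the next *aldh2.1-/-* clutch, and the log2 fold change of 0.58 became 0.03 without it. The remaining *aldh2.1-/-* case was SOD3 (ENSDARG00000070168) in clutch 5, at 2.78 CPM against 2.21 CPM in the next, with a log2 fold change of -0.22 that was -0.30 without it.

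Clutch 1 of *aldh2.1+/+* gave the other 3. It had 14.5 CPM of *gstt1a* against 10.7 CPM in the next *aldh2.1+/+* clutch, 18.6 CPM of *gstt2* against 15.1 CPM, and 45.4 CPM of *sod1* against 35.8 CPM. Without it the log2 fold changes, 0.16, 0.03 and -0.15 with all libraries, were 0.26, 0.10 and -0.07.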

How the results depend on the processing

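No antioxidant gene reached an adjusted p under 0.05 under any alternative, and the median log2 fold change stayed between -0.04 and 0.04 when single libraries were left out. The counts at an unadjusted p under 0.05 were 1 higher and 1 lower with all libraries. Leaving out single libraries gave 0 to 2 higher and 1 to 3 lower. Limma gave 2 higher on log2(TPM + 1), 2 on log2(TPM + 0.1) and 2 on all genes above 0 TPM, where the lower count was 0. The cause was not tested. Clutches of the same number did not deviate together (correlations from -0.13 to 0.11). This cannot decide whether they were paired, because the sources do not say how the clutches were related. With a replicate block, 0 genes were higher and 2 lower (*gsta.1* and *gsto2*). Between 0 and 7 genes changed sign under an alternative. Among all genes, 48 passed the adjusted threshold without *aldh2.1-/-* clutch 5, and none was an antioxidant gene. Counts as low as 6.88 per library limit the rarest genes tested.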
